A study of Homo sapiens with 22 samples.

Results

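Red cells keep their shape through a protein mesh under the membrane that is anchored to transmembrane proteins, several of which carry blood group antigens. This account covers 8 genes of that system, GYPB, GYPC, RHAG, KEL, SLC4A1, EPB42, EPB41 and ANK1. They were chosen by name, with earlier results of these data known, and every transposon insertion within the gene body or 20 kb on either side was collected for each of them. The 8 gene windows held 65418 of the 52121915 insertions that lay on chromosomes 1 to 22, X and Y, which is 0.126% of the insertions on 0.0243% of the TTAA sites. All 8 are among 19962 protein-coding genes whose windows were counted in the same way.

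The data come from Calling Cards, a method in which a transposase leaves a transposon in the DNA as a record of where it has been. The piggyBac transposase (PBase) inserts at TTAA, and here it carried no fused factor that the labels name. K562, a human leukemia line with erythroid and megakaryocytic features, was electroporated with 5 ug of the donor plasmid Barcoded-PBase-SRT-Puro and 5 ug of a helper plasmid, then kept in 2 ug/ml puromycin for 11 days. The helper was hyPBase, labelled WTHYPB, in 10 libraries and hyPBase-centrip in 10 libraries, and what sets the latter apart is not given in the sources used here. The donor is a self-reporting transposon (SRT), from which a transcript runs into the adjacent DNA, so insertions were read from RNA, and an insertion that gave no usable transcript could not be seen.

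The libraries held 1509672 to 3596762 insertions each. Any pair of libraries shared 8.78% to 15.1% of the lines of the smaller library in position, orientation and barcode, and whether such lines are the same event was not tested. The labels say that transfected replicates were grown together in dishes of 3 and that RNA was taken from every 3, and they do not say how these pools map to the libraries. Thus p-values measure the spread between libraries, which may in part be technical. No RNA level was measured. The density around the K562 markers ranged from 10.8 times that of the surrounding 1 Mb at TAL1 to 1.07 times at EPOR, which did not pass the test, and their median was 2.51. The 6 markers of other blood cells ranged from 0.277 at PAX5 to 1.59 at CEBPA, which was called denser, with a median of 0.84, so the lists overlapped.

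The proteins encoded by these genes have known places in the membrane. SLC4A1 encodes band 3, the anion exchanger, and ANK1 encodes ankyrin, which ties band 3 to spectrin. EPB42 encodes protein 4.2, which binds band 3 and ankyrin. EPB41 encodes protein 4.1, which joins spectrin to actin, and GYPC encodes glycophorin C, to which protein 4.1 binds. GYPB encodes glycophorin B, a sialoglycoprotein of the MNS blood group system. RHAG encodes the Rh-associated glycoprotein, which is needed for the Rh antigens to reach the surface, and KEL encodes the Kell blood group metalloprotease.

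The TTAA site that took the most insertions is shown with 13 bases on either side for 7 genes, because these are the positions at which the windows were hit most often. The ANK1 sequence is not printed here. The sequences are the plus strand of hg38, and the capitals mark the TTAA.
GYPB, chr4:144018207-144018210: cattgcctgcattTTAAagacgaggacaca
GYPC, chr2:126644912-126644915: gagttctcgttgtTTAAaagtgtgtagcac
RHAG, chr6:49646794-49646797: tccagtatccacaTTAAaatgaaagtcagt
KEL, chr7:142963099-142963102: ttcccaagcatgcTTAAttgtttctctcgg
SLC4A1, chr17:44280344-44280347: agcttcattcactTTAAaattgagctcagg
EPB42, chr15:43220743-43220746: catcccacttcctTTAAtgaaaacaggtga
EPB41, chr1:28883882-28883885: tcagtctcaacttTTAAtaattcgctcaat

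These sites differed in use. The RHAG site, 9955 bases upstream of the start, took 692 insertions, with 28, 35 and 38 as the lowest, median and highest library. The GYPC site, 11246 bases upstream of the start, took 521, with 20 to 33 in each library. The EPB41 site took 325 and the GYPB site, in an intron 1173 bases after the start, took 278. The EPB42 site lies in an exon 275 bases after the start and took 223, the SLC4A1 site lies 12209 bases upstream and took 178, and the KEL site lies 736 bases upstream and took 127. All 7 were hit in each of the 20 libraries, and all have 50 bases on both sides that occur nowhere else in hg38. The top ANK1 site, in an intron 23788 bases upstream of the canonical start, took 463 insertions. Every line of a library differed from the others in site, orientation or barcode, so the barcodes in use limit a site's count. The RHAG sites of rank 2 and 3 had highest libraries of 37 and 38, near the 38 of the top site. Whether the most used sites had reached that limit was not tested.

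The EPB42 site stood apart in orientation. Of its 223 insertions 221 were recorded on the plus strand and 2 on the minus strand, while EPB42 is transcribed from the minus strand. The EPB41 site had 161 plus and 164 minus, and the RHAG site had 327 and 365. The second most used EPB41 site, 12638 bases after the canonical start in an intron, had 19 plus and 238 minus, against the plus strand of the gene. Genome-wide, TTAA preceded by T and followed by A (TTTAAA) made up 17.8% of TTAA sites and took 4.50 insertions per site, against 2.32 for the other sites. In 7 of the 8 windows the TTTAAA sites were likewise the denser class, for example with 35.9 against 6.77 insertions per site at SLC4A1. EPB42 went the other way, with 6.80 insertions per TTTAAA site and 9.41 per other site, which was not tested.

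Density was expressed as insertions per TTAA site in the gene window divided by insertions per TTAA site in the surrounding 1 Mb, 500 kb on each side. A ratio of 1 means that the gene was hit as often as its neighbourhood. All 8 windows were denser than their surroundings with both helpers, and in each gene all 20 libraries lay above 1. The exact two-sided sign-flip permutation test over 10 libraries gave p = 0.001953 for every gene and helper, the smallest p it can give, and adjusted p-values of 0.00260 with hyPBase and 0.00256 with hyPBase-centrip. Over all 19771 genes tested 41.8% were called denser and 42.0% sparser, so a call alone is common. The median ratio of the 8 genes was 2.79 and that of all genes tested 1.00.

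**Figure D1:**
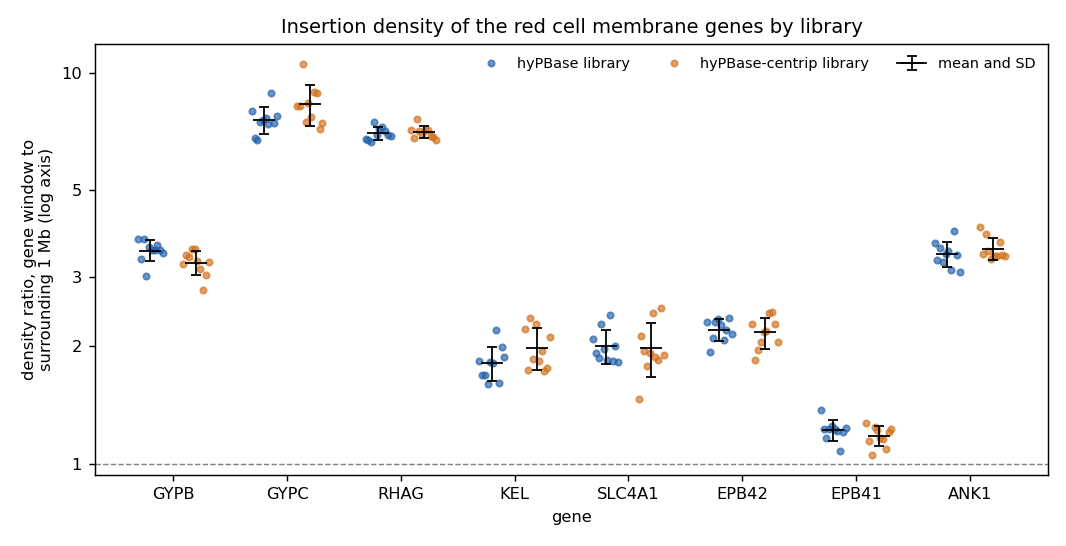
Density ratio of each gene window to the surrounding 1 Mb (log axis) in each of the 10 libraries per helper, with bars for mean and SD and a dashed line at 1. GYPC and RHAG sit highest, between 6.63 and 10.5, and EPB41 lowest, between 1.05 and 1.37.

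GYPC had the highest mean ratio against 500 kb on either side, while against 1 Mb on either side RHAG (12.4) came before GYPC (8.74). With hyPBase its lowest, median and highest libraries were at 6.74, 7.52 and 8.88 (mean 7.57 ± 0.60 SD, n = 10), and with hyPBase-centrip at 7.19, 8.22 and 10.5 (8.30 ± 0.99). Its window held 5838 insertions, or 17.1 per TTAA site, where the surrounding 1 Mb had 2.19. Of the genes tested 99.6% had a lower ratio. It also kept a ratio above 1 under every alternative, from 4.29 with barcodes collapsed to 11.2 against 250 kb on either side.

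RHAG was hit most often in absolute terms. Its 524 TTAA sites took 18590 insertions, 35.5 per site, and 85.1% of the sites were hit in at least 1 library. With hyPBase the ratio ran from 6.63 over a median of 6.93 to 7.49 (6.996 ± 0.264), and with hyPBase-centrip from 6.74 over 7.03 to 7.59 (7.04 ± 0.25). The ranges of GYPC and RHAG overlapped. The RHAG surroundings were themselves dense, at 1.87 times the genome mean of 2.71 insertions per site, and its ratio moved with the width of the surroundings, to 12.4 against 1 Mb on either side and 4.36 against 250 kb. With barcodes collapsed it was 3.85.

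ANK1 and GYPB followed, and their ranges overlapped each other but not that of RHAG. ANK1 ran from 3.09 over 3.44 to 3.93 with hyPBase (3.44 ± 0.25) and from 3.35 over 3.43 to 4.04 with hyPBase-centrip (3.55 ± 0.23). GYPB ran from 3.01 over 3.53 to 3.77 with hyPBase (3.51 ± 0.22) and from 2.79 over 3.29 to 3.54 with hyPBase-centrip (3.27 ± 0.23). With barcodes collapsed ANK1 fell to 2.19, below GYPB at 2.40. The GYPB value is one of incomplete mapping, as described further on.

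EPB42, SLC4A1 and KEL formed a group of overlapping ranges, all below GYPB. EPB42 averaged 2.20 ± 0.14 with hyPBase and 2.17 ± 0.20 with hyPBase-centrip. SLC4A1 averaged 2.00 ± 0.20 and 1.98 ± 0.31, and KEL 1.81 ± 0.18 and 1.98 ± 0.24. They rest on fewer insertions, with 70 to 180 per library in the EPB42 window, 43 to 149 at SLC4A1 and 51 to 128 at KEL.

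EPB41 had the lowest ratio, and its 20 libraries, from 1.05 to 1.37, did not overlap those of KEL. It averaged 1.22 ± 0.07 with hyPBase and 1.18 ± 0.07 with hyPBase-centrip. Its window was not sparse, with 14583 insertions or 9.28 per TTAA site. The surrounding 1 Mb had 7.71 per site, 2.84 times the genome mean and the highest level around any of the 8 genes. Of the genes tested 60.4% had a lower ratio.

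SLC4A1 differed from the others in where its insertions lay. Its gene body took 111 insertions on 31 TTAA sites, a ratio of 0.57 ± 0.25 with hyPBase and 0.74 ± 0.34 with hyPBase-centrip. The 20 kb upstream took 925 insertions and the 20 kb downstream 608. When the test was repeated on gene bodies alone, SLC4A1 was called sparser than its surroundings (0.68, adjusted p 0.00276 and 0.0256 from the sign-flip test), and with 5 kb on either side it was not called (1.12, adjusted p 0.275 and 0.572). The other 7 genes stayed denser in both cases. GYPB had 64.0% and ANK1 97.6% of their insertions in the body, while at GYPC, RHAG, KEL, SLC4A1 and EPB42 between 53.4% and 58.6% lay in the 20 kb upstream.

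The span around the canonical start site was next compared with the same surroundings, over 2.5 kb on either side of the start. The ratio was 24.96 at RHAG, 22.1 at GYPC and 17.7 at ANK1. It was 7.73 at EPB42, 7.46 at GYPB, 6.07 at KEL and 2.93 at EPB41. SLC4A1 was alone in falling below 1, at 0.67, from 21 insertions on 6 TTAA sites. The median was 7.59 over the 8 genes and 1.33 over 19229 genes, with RHAG above 99.4% of them and GYPC above 99.1%.

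**Figure D2:**
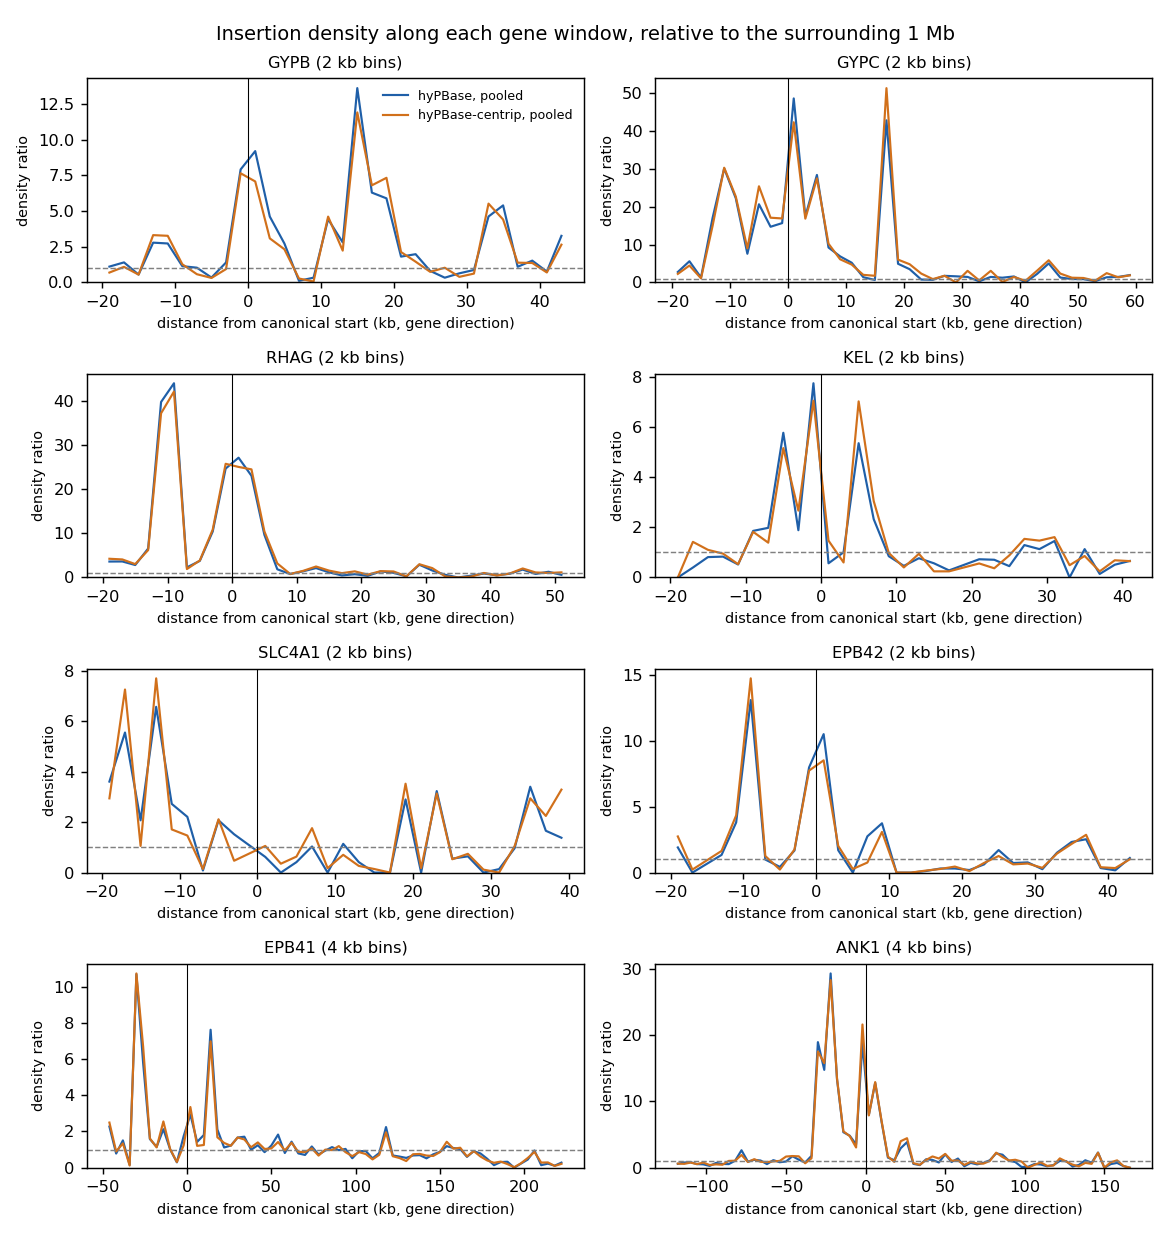
Density ratio to the surrounding 1 Mb (vertical axis) in bins along each window against the distance from the canonical start in kb, positive in the direction of transcription, with the 10 libraries of each helper pooled in a line and 1 marked by a dashed line. RHAG has a peak at the start and one of 42.3 to 44.1 centred 9 kb upstream, and SLC4A1 has none at its start.

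Where several coding transcripts start apart from each other, the starts differed. At EPB41 the first start, with 7 coding transcripts, had a ratio of 6.42 ± 1.03 with hyPBase and 7.13 ± 1.22 with hyPBase-centrip, against 3.07 ± 0.37 and 2.78 ± 0.44 at the canonical start further inside, with 11. At ANK1 the canonical start was at 17.5 ± 2.69 and 18.3 ± 3.01, and the farthest upstream start at 0.36 ± 0.37 and 0.56 ± 0.44. At EPB42 the canonical start was at 8.27 ± 0.86 and 7.29 ± 0.90, and a start further inside the gene at 0.066 ± 0.139 and 0.097 ± 0.160.

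Dense stretches were runs of overlapping 2 kb windows with at least 4 TTAA sites. Each window had at least 3 times the density of the surrounding 1 Mb in the pooled libraries of each helper. The folds given below are means over single libraries, so some lie under 3. The 8 genes held 38 stretches, from 3 at RHAG to 7 at ANK1. Together they covered 22.5% of the window length and 71.7% of the insertions. Of the 2 kb windows 303 of 1643 passed (18.4%), where 6.13% passed over all protein-coding gene windows. A stretch somewhere is common, since 72.7% of genes had one. Windows just inside the limit were at 3.00 (EPB41) to 3.18 (GYPB) and those just outside at 2.502 (GYPC) to 2.98 (EPB41). In 16 of the stretches every library was at 3-fold or more.

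At RHAG, a stretch of 14000 bases (chr6:49629175-49643174) held the start and took 9066 insertions at 16.6 ± 0.83-fold with hyPBase and 16.8 ± 0.71-fold with hyPBase-centrip. A second stretch follows it directly upstream (chr6:49643175-49656674), with 7836 insertions at 12.3 ± 0.66 and 11.997 ± 0.655-fold, and overlaps no annotated gene. It begins at the next base and counts apart only because windows had to overlap to be joined. It ends with the last window scanned, so it may reach further. The first and second stretch hold 48.8% and 42.2% of the insertions in the gene window. The libraries were tight, from 15.1 to 18.2-fold in the first and from 11.1 to 13.3-fold in the second.

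At GYPC, a stretch of 19500 bases (chr2:126641133-126660632) reached from 15 kb upstream into the gene and took 3824 insertions, 65.5% of the window, at 18.5 ± 1.498 and 19.6 ± 2.10-fold. A further stretch in the body (chr2:126672133-126678132) stood at 14.6 ± 2.90 and 18.1 ± 4.60-fold. All 127 TTAA sites of the GYPC body lie in introns. A small stretch at the upstream edge (chr2:126636633-126640632) held 147 insertions at 4.24 ± 1.36 and 3.61 ± 1.08-fold.

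At ANK1, the densest stretch lay inside the gene body but upstream of the canonical start (chr8:41811220-41830719). It took 7180 insertions, 48.9% of the window, at 15.9 ± 1.27 and 15.8 ± 1.44-fold. The stretch at the canonical start (chr8:41790720-41803719) took 2531 at 12.2 ± 1.01 and 13.01 ± 0.90-fold. The remaining 5 stretches averaged 2.91 to 6.52-fold.

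The other genes had smaller stretches. GYPB had one inside the gene (chr4:143998604-144009603, 7.11 ± 0.68 and 6.94 ± 0.61-fold) and one at the start (chr4:144014604-144021603, 7.38 ± 0.77 and 6.01 ± 0.60-fold). EPB42 had one at the start (chr15:43217727-43224226, 7.17 ± 0.75 and 6.42 ± 0.91-fold) and one centred 9958 bases upstream (chr15:43228727-43233226, 8.07 ± 1.35 and 9.02 ± 1.62-fold), which reaches into TGM5, a transglutaminase gene. Both of these EPB42 stretches stayed above 3-fold in all 20 libraries.

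KEL had its densest stretch at the start (chr7:142960614-142965113), with 399 insertions at 5.91 ± 1.05 and 5.90 ± 1.204-fold. SLC4A1 had stretches centred 12004 bases (chr17:44278390-44281889) and 17504 bases (chr17:44283390-44287889) upstream, at 4.35 ± 1.42 and 5.08 ± 1.15-fold and at 3.85 ± 0.91 and 3.67 ± 1.18-fold, and none overlapping the gene. In the first of these a single TTAA site of 11 took 178 of the 273 insertions (65.2%). The one centred 17504 bases upstream ends with the last window scanned. Further SLC4A1 stretches lay downstream of the gene. They were at 3.48 ± 1.28 and 2.95 ± 1.61-fold (chr17:44242890-44245389) and at 3.25 ± 0.98 and 2.94 ± 0.81-fold (chr17:44231890-44234389). EPB41 had one at its first start (chr1:28881591-28889090, 7.52 ± 0.73 and 7.999 ± 1.134-fold) and one centred 13521 bases after the canonical start (chr1:28925591-28930590, 6.23 ± 0.69 and 5.55 ± 0.57-fold). Only 26.4% of the EPB41 insertions lay in stretches, the least of the 8, against 92.4% at RHAG and 91.5% at GYPC.

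The 250 bases before the annotated start are printed for RHAG, GYPC, KEL, EPB42 and GYPB from RefSeq (GRCh38.p14), since the density within 2.5 kb of their canonical starts was 6.07 to 24.96 times that of the surroundings. They read in the direction of the gene. Capitals mark, on either strand, the hexamer AGATAA, the hexamer TGATAA, the hexamer AGATAG and the hexamer TGATAG, letters that the erythroid factor GATA1 is known to bind.
RHAG, chr6:49636840-49637089, minus strand: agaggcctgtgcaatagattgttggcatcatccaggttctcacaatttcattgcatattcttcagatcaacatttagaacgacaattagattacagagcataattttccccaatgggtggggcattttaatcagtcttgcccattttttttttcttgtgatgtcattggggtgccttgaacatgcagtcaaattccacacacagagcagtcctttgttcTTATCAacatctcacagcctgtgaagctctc
GYPC, chr2:126655908-126656157, plus strand: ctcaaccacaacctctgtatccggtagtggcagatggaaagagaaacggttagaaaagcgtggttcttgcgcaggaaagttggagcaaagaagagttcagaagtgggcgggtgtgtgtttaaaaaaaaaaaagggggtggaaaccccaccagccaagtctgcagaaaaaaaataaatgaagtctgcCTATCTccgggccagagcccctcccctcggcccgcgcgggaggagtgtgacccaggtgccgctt
KEL, chr7:142962364-142962613, minus strand: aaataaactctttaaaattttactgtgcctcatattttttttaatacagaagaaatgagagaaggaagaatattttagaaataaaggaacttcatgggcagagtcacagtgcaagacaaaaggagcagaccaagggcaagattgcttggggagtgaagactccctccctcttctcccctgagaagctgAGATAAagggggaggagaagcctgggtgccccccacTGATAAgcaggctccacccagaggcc
EPB42, chr15:43221019-43221268, minus strand: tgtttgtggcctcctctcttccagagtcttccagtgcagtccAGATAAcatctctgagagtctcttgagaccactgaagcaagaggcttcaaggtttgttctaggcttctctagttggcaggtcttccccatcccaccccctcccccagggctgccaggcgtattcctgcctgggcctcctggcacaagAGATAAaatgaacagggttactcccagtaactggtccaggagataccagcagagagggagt
GYPB, chr4:144019381-144019630, minus strand: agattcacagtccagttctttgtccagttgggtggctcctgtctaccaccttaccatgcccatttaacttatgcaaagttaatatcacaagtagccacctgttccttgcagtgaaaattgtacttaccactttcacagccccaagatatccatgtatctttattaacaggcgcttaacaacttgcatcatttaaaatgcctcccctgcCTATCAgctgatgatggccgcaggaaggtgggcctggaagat

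The RefSeq promoters used here held 8 entries for 6 of the genes, with none for SLC4A1 and ANK1. Of the 8 entries 7 carried at least 1 of these hexamers. Of all 35097 RefSeq promoters of that length 22.3% did. KEL, EPB42 and 1 of the 2 GYPB entries carried 2 hexamers each, where 4.96% of all these promoters carried 2 or more. The 2 GYPB entries overlap and share a hexamer, so they are not separate promoters. The letters CCACCC, on either strand, can share an end base with a hexamer, and they stood in 5 of the 8 entries and in 31.3% of all. These are matches of letters, and no binding was measured.

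Orientation was compared next, as the share of insertions in the gene body recorded on the strand of the gene. An even mix gives 50%. EPB42, EPB41, KEL, ANK1 and GYPB lay below 50% in all 20 libraries. The exact sign-flip permutation test called all 5 lower with both helpers (adjusted p 0.00290 and 0.00288). With barcodes collapsed the same test lost the GYPB call (47.6%, adjusted p 0.180 and 0.00529) and kept the other 4. Over 12410 genes tested 75.2% were called lower and 3.98% higher, and the median gene was at 32.4%. A low share is thus the usual state, and the 7 tested members had a median of 41.5%.

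EPB42 had the lowest mean, at 14.8 ± 5.45% with hyPBase and 17.1 ± 6.23% with hyPBase-centrip. EPB41 had 18.7 ± 1.36% and 21.4 ± 1.34% from 13129 insertions. KEL had 28.7 ± 5.96% and 30.7 ± 6.37%. The place of EPB42 rested on its most used site: without that site EPB42 was at 24.6% and EPB41 at 20.04%, and with barcodes collapsed they were at 26.0% and 24.4%. EPB42, EPB41 and KEL sat below the median gene, and ANK1 (41.4 ± 1.57% and 42.3 ± 1.97%) and GYPB (41.8 ± 4.36% and 41.3 ± 3.52%) sat above it.

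GYPC was called higher than 50%, at 55.2 ± 4.52% and 56.5 ± 3.99% (adjusted p 0.0125 and 0.00530), with 18 of 20 libraries above 50%, 1 at 50% and 1 below. That call was lost when only insertions with at least 2 reads were counted (55.0%, adjusted p 0.0513 and 0.00312) and when barcodes were collapsed (51.3%, adjusted p 0.598 and 0.336). The collapsed value includes sites that the counting itself sets to 50%. RHAG was at 55.5 ± 1.88% with hyPBase (adjusted p 0.00290) and 50.9 ± 2.17% with hyPBase-centrip (adjusted p 0.244), so it was not called. SLC4A1 had 45 and 66 insertions in its body, fewer than the 100 per helper that the test required.

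**Figure D3:**
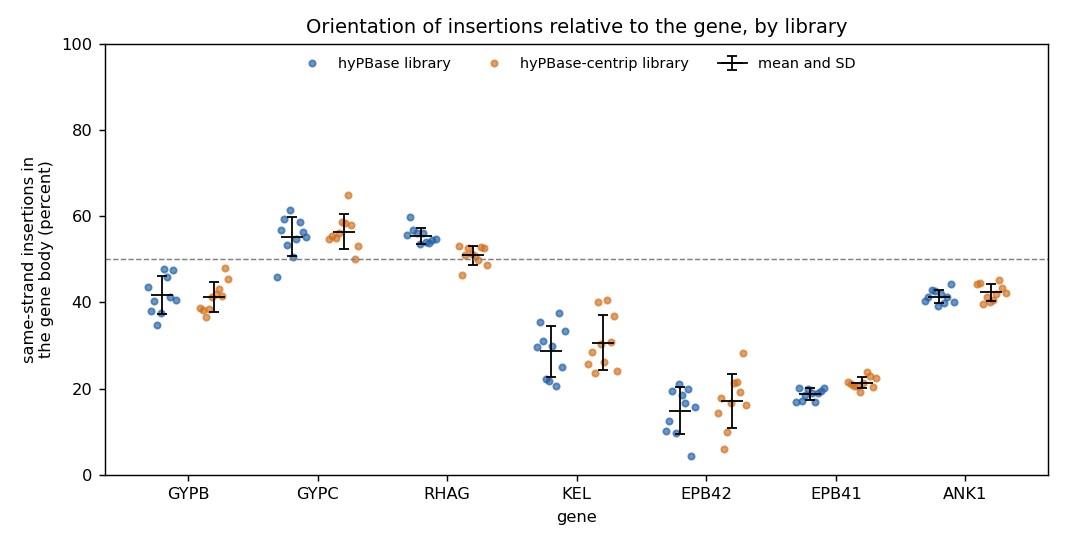
Percentage of gene body insertions on the strand of the gene in each of the 10 libraries per helper, with bars for mean and SD and a dashed line at 50%. EPB42 and EPB41 lie lowest, GYPC and RHAG near or above 50%, and SLC4A1 is left out for its few insertions.

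Orientation changed along some of the windows. At KEL the body was at 29.7 ± 6.09% over the 20 libraries and the 20 kb upstream at 74.5 ± 8.39%, and the lowest upstream library (57.4%) lay above the highest body library (40.5%). At EPB42 the body was at 15.96 ± 5.81%, the 20 kb upstream at 23.2 ± 5.58% and the 20 kb downstream at 63.4 ± 9.98%. At EPB41 the body was at 20.04 ± 1.91% and the 20 kb upstream at 53.2 ± 6.29%, again with no overlap. At GYPC the upstream, body and downstream shares were 53.1 ± 3.71%, 55.9 ± 4.195% and 54.0 ± 9.86%, and at ANK1 44.2 ± 24.5%, 41.8 ± 1.80% and 53.3 ± 16.98%, with overlapping libraries. These shares along the windows were chosen after the data were seen and carry no test.

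Single stretches, some with few insertions, covered a wider range. Of the 38, 26 were below 50% and 12 above. The same count was not made for the stretches of all genes, of which 75.2% were called lower in the gene body. The EPB42 stretch at the start was at 8.88 ± 2.58% with hyPBase and 9.34 ± 3.29% with hyPBase-centrip, and the EPB41 stretch centred 13521 bases after the start at 4.48 ± 2.28% and 7.61 ± 1.04%. The lowest pooled share, 3.57%, was that of an EPB42 stretch inside the gene (chr15:43210727-43212726) with 56 insertions on 4 TTAA sites, of which a single site took 47 (83.9%). The far upstream GYPC stretch, with 147 insertions, was at 95.6 ± 5.91% and 94.3 ± 7.54%. The RHAG stretch upstream of the gene was at 64.6 ± 1.35% and 63.8 ± 1.28%, and the one at its start at 56.5 ± 1.18% and 53.5 ± 2.09%.

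**Figure D4:**
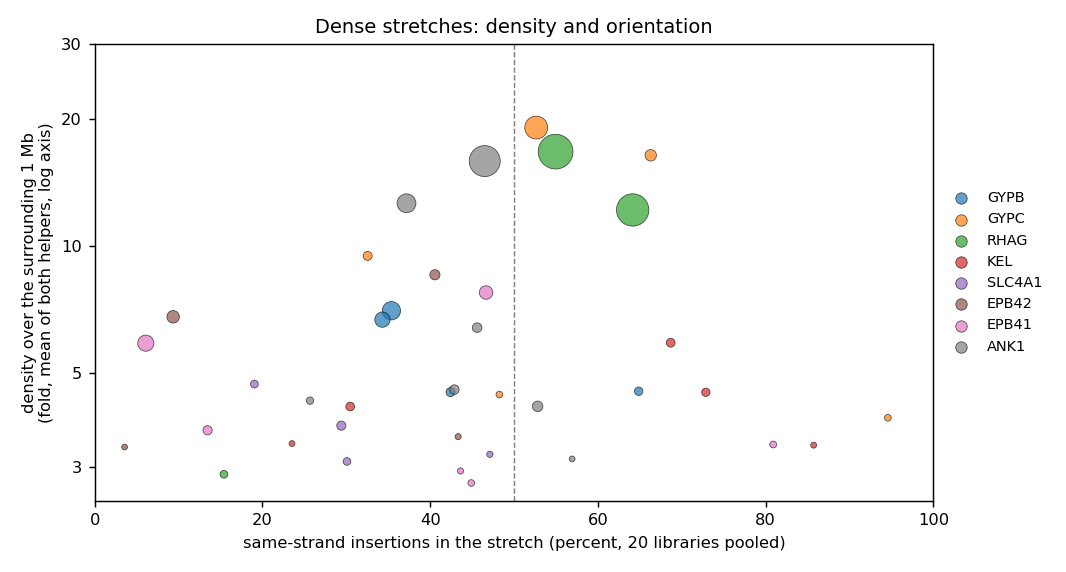
Each of the 38 dense stretches by its same-strand share (horizontal axis, percent, 20 libraries pooled) and its density over the surrounding 1 Mb (vertical log axis, fold), with colour for the gene and area growing with the number of insertions. The densest stretches of RHAG, GYPC and ANK1 lie at 55.0%, 52.6% and 46.5%, and the EPB42 stretch at the start (9.36%), an EPB41 stretch inside the gene (6.10%) and a small EPB42 stretch of 56 insertions (3.57%) lie below 10%.

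The helpers were compared by the count of insertions per gene window, scaled to library size (CPM). Of the 8 genes only GYPB was called by edgeR's quasi-likelihood test, with 120 ± 6.57 CPM with hyPBase and 105 ± 8.22 with hyPBase-centrip (log2 fold change -0.19, SE 0.040, adjusted p 0.00149). Over 18855 windows 2.79% were called, 156 higher and 370 (1.96%) lower with hyPBase-centrip. With barcodes collapsed the GYPB call was lost (-0.12, adjusted p 0.600).

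The other 7 genes did not pass. Their log2 fold changes ran from -0.065 at RHAG (SE 0.028, adjusted p 0.213) to 0.12 at KEL (SE 0.068, adjusted p 0.430). ANK1 was at 0.062 (SE 0.030, adjusted p 0.305) and GYPC at 0.053 (SE 0.040, adjusted p 0.572). The errors were wider at SLC4A1 (SE 0.073) and EPB42 (SE 0.057), the windows with few insertions, than at RHAG.

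The same-strand share was also compared between helpers, a test chosen after the RHAG values were seen. An exact permutation of the 20 helper labels for each of 12410 genes called 81, or 0.653%. RHAG was among them, lower with hyPBase-centrip by 4.61 percentage points (p = 1.08e-05, the smallest the test can give, adjusted p 0.0134), and all 10 hyPBase libraries (53.6% and above) lay above all 10 hyPBase-centrip libraries (53.2% and below). EPB41 was higher with hyPBase-centrip by 2.71 points (adjusted p 0.0396). With barcodes collapsed 0 of 11447 genes were called, and 1340 had an unadjusted p under 0.05 in the exact permutation test. The differences were then -4.12 points at RHAG (adjusted p 0.237) and 2.86 at EPB41 (adjusted p 0.0620). With at least 2 reads per insertion the same test did not call EPB41, at a difference of 2.18 points (adjusted p 0.279). RHAG was still called there, at -6.07 points (adjusted p 0.0379). For the other 5 genes tested adjusted p ranged from 0.650 to 0.949.

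Mapping limited GYPB more than any other member, because the glycophorin genes on chromosome 4 are copies of each other. Of its 482 TTAA sites only 44.2% had 50 unique bases on both sides, while the other 7 windows had 93.6% to 99.5%. A further 39.8% were unique on 1 side, and 77 sites (16.0%) on neither. Those 77 took no insertion, against 17.4 per site at the sites unique on both sides and 10.6 at those unique on 1 side. With only sites unique on both sides counted, in the window and in its surroundings, which also leaves out the sites unique on 1 side, the GYPB ratio was 5.11 instead of 3.39, and that of ANK1 was 3.43. The values given for the GYPB start and stretches count all sites.

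**Figure D5:**
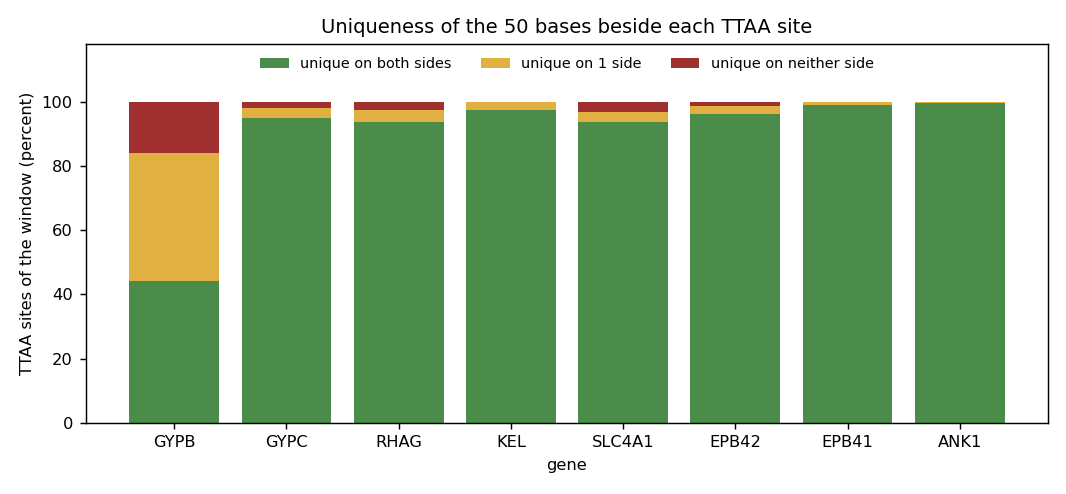
Percentage of the TTAA sites in each gene window whose neighbouring 50 bases are unique in hg38 on both sides, on 1 side or on neither side. GYPB has 44.2% in the first class and the other 7 genes 93.6% or more.

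The recorded orientation at GYPB is bound to the same limit. Its 96 sites that are unique only on the right held 1188 insertions, all plus, and its 96 sites unique only on the left held 851, all minus. Genome-wide 99.99% of insertions at sites unique only on the right were plus and 0.00388% at sites unique only on the left. At the 1-sided sites of GYPB, then, no site had both orientations on record. With sites unique on both sides alone the GYPB share was 41.9%, close to the 41.5% of all sites, and it was still called lower. With barcodes collapsed it was 47.6% (adjusted p 0.180 and 0.00529) and was not.

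Neighbouring genes share some of these windows. The EPB42 window reaches TMEM62, CCNDBP1 and TGM5, whose own windows had ratios of 1.81, 1.17 and 2.05. The KEL window reaches LLCFC1 (1.37) and TRPV5 (0.73), the EPB41 window OPRD1 (1.07) and TMEM200B (0.44), and the ANK1 window NKX6-3 (0.56). GYPB, GYPC, RHAG and SLC4A1 share theirs with no other protein-coding gene. Genes for long noncoding RNAs, not listed here, overlap dense stretches at GYPB, GYPC, SLC4A1, EPB42, EPB41 and ANK1. Their part in the density or orientation was not tested.

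A further list of 30 red cell membrane genes gives the setting. Of these, 23 were called denser than their surroundings and 7 sparser, with a median ratio of 1.55. MPP1, the membrane palmitoylated protein that joins glycophorin C to protein 4.1, had 11.7 ± 0.53 with hyPBase and 11.3 ± 0.53 with hyPBase-centrip. KCNN4, the calcium-activated potassium channel, had 11.1 ± 1.2035 and 10.9 ± 1.11, and ERMAP, which carries the Scianna antigens, 4.67 ± 0.40 and 4.38 ± 0.29. The lowest were CD44 (0.35 ± 0.04 and 0.43 ± 0.04), the porphyrin transporter ABCB6 (0.66 ± 0.17 and 0.56 ± 0.14) and DMTN, which encodes dematin (0.58 ± 0.12 and 0.67 ± 0.14).

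For 7 of the members the gene whose log2 CPM followed it most closely over the 20 libraries was also noted. They were CLEC16A for GYPC (Pearson r 0.87), CHST11 for ANK1 (0.86), PSMD14 for EPB41 (0.82), PCARE for EPB42 (0.82), STAM for GYPB (0.77), PGBD5 for KEL (0.76) and CEACAM5 for SLC4A1 (0.75). Each is the highest of all genes with windows elsewhere, the points share library and helper, and no test was made.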

How the data were processed

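Calling Cards insertions of 20 K562 libraries were used. Per the labels' notes, the authors' processing named Trimmomatic, BWA, SAMtools and hg38, and their settings are not given in the sources used here. In the deposited files each line is 1 insertion, with a raw count of reads, its position, orientation and barcode. Each line was counted as 1 insertion, and all of those on chromosomes 1 to 22, X and Y lay at a TTAA of hg38. For 2 further libraries title and description name different helpers, and they were not used. Gene models came from GENCODE v44, with 1-based coordinates.

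Density was (insertions + 0.5) per TTAA site. Genes were tested where the surroundings predicted at least 50 insertions per helper, and called at an adjusted p (Benjamini-Hochberg) under 0.05 in the same direction with both helpers. The smallest p of 10 libraries passes this adjustment only because many genes reach it. In simulated data 193 of 200 genes changed by 1.5-fold and 136 of 200 changed by 1.2-fold were recovered when 8000 others also changed, and 0 of 200 at 1.5-fold when no others changed. In the simulated orientation test, with 6000 others changed, 145 of 200 genes at 40% and 53 of 200 at 45% were recovered, and 0 of 200 at 40% when no others changed. In both simulations the others were given larger changes, and libraries differed only by depth and random counting. These rates therefore do not carry over to libraries with further spread. Helper counts were tested with edgeR 4.0.16 (TMM, at least 10 insertions in at least 10 libraries) in R 4.3.3. DESeq2 1.42.0 was an alternative, as were other windows, surroundings and insertion filters. The named genes are the 8 members, the 3 highest and 3 lowest of the further list, overlapping neighbours, the gene most like each member (not reported here for RHAG) and the most used site. Members and lists were chosen with earlier results of these data known.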

Additional observations from a re-analysis of the deposited data

Results flagged for a closer look

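Over 30 sets of 10 libraries (a gene, a measure and a helper), 3 had a library that lay apart from the rest by a gap larger than chance gives in about 1 in 20 sets. The library hyPBase-centrip replicate 3, which has the fewest insertions of its helper, had a GYPC density ratio of 10.5, where the other 9 lay between 7.19 and 8.94. The same library had the highest RHAG ratio, 7.59, with the others between 6.74 and 7.15. Without it, the mean over the remaining libraries was 7.80 at GYPC and 6.99 at RHAG, and all 8 genes kept their call. The RHAG same-strand share of hyPBase replicate 2 was 59.9%, with the others of its helper between 53.6% and 56.8%.

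The same-strand share differed between helpers by -4.61 percentage points (hyPBase-centrip minus hyPBase) at RHAG and by 2.71 at EPB41 in the permutation test over all genes. A cause was not tested.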

How the results depend on the processing

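Of 10 alternatives for density, 8 left all 8 genes called denser, and the gene body alone and the body with 5 kb on either side left 7. SLC4A1 reversed to 0.68 in the body alone. Dense stretches numbered 66 with 1 kb windows and 15 with 5 kb windows, against 38. The count of members called above a same-strand share of 50% went from 1 to 0 with at least 2 reads per insertion and to 0 with barcodes collapsed, where RHAG turned to 48.8%. Genes whose same-strand share differed between helpers numbered 23 with at least 2 reads and 0 with barcodes collapsed by the exact permutation test, where 1340 of 11447 genes had an unadjusted p under 0.05.

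In the helper comparison edgeR called 526 windows, and 307 with the gene body only, 324 with at least 2 reads, 24 with barcodes collapsed and 308 by DESeq2. With barcodes collapsed the log2 fold change turned to -0.035 at GYPC and -0.021 at SLC4A1. The replicate numbers did not pair the libraries: correlations of the same number ran from -0.030 to 0.044, and 2 of 10 libraries correlated best with their own number. The fit with the replicate block called 485, and SLC4A1 turned to -0.0041 there. Collapsing barcodes caps a site at 2 insertions per library, 1 for each orientation. SLC4A1 gave no body value between helpers for lack of counts. Depth limits SLC4A1, KEL and EPB42 most, with 43 insertions in the poorest library at SLC4A1.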
